A study of Homo sapiens with 4 samples.

Results

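Collagens, laminins and integrins were examined as 1 group of genes in cells labelled HepG2, a line established from a liver tumor. The members were every gene symbol of the deposited counts that names a collagen chain, a laminin chain or an integrin chain, which gave 83 of 59050 symbols. Of these, 44 were collagens, 12 were laminins, 18 were integrin alpha chains and 8 were integrin beta chains. The remaining symbol, ITGBL1, names a protein that resembles integrin beta chains but is not one. RNA-seq was available from 4 libraries of polyadenylated RNA, 2 of untreated cells (0 h) and 2 of cells that received doxorubicin (1 ug/ml, 24 h), which breaks DNA. The drug was given to induce p53, and the question was which mRNAs change after it. In the labels the groups differ in drug and in time together, so these cannot be told apart. The design text calls the libraries of a group biological replicates, and the line is a single line in both groups. The titles read HepG2-nop53-mRNA-seq for the untreated samples and HepG2-p53-mRNA-seq for the treated ones. The treatment tag of the treated samples reads p53-miRNA, while the treatment protocol gives doxorubicin.

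Collagens are secreted or membrane-bound proteins built from 3 chains wound around each other, and they give the extracellular matrix its strength. Laminins are cross-shaped proteins of an alpha, a beta and a gamma chain that form the sheet of the basement membrane together with collagen IV. Integrins are pairs of an alpha and a beta chain that span the cell membrane and hold the cell to these proteins. In liver tissue most interstitial collagen comes from stellate cells and fibroblasts. Where an epithelium has a basement membrane, its cells sit on laminin and collagen IV through integrins.

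The libraries held between 27572740 and 36272180 counts, and 3 counts corresponded to a CPM of between 0.083 and 0.109. CPM is the count after every library has been scaled to the same total. A gene was called expressed when its CPM was at least 1 in all 4 libraries, which held for 12384 genes. Untreated replicate 2 stood apart. Over 17683 genes its correlation of log2 CPM with the other libraries was between 0.887 and 0.895, while the other 3 libraries correlated with each other at between 0.983 and 0.993 (a description over genes, which share their libraries). The liver label was not borne out by marker genes. ALB, the serum albumin gene that defines hepatocytes, stood at a CPM of at most 0.109, and 0 of 14 hepatocyte genes were at a CPM of 1 in all libraries. Their summed CPM was 1.32 and 5.64 without the drug and 16.9 and 20.1 with it, where the fibrinogen gene FGG made up most of it. The leukocyte list (0 of 5) and the endothelial list (0 of 4) also had no gene at that level across all libraries. Some of their genes were nevertheless above it in part of the libraries. CDH5 of the endothelial list stood at a CPM of 8.52 and 3.29 without the drug and 1.46 and 0.943 with it. PECAM1 of the same list stood at 0.935 to 1.16. CD14 of the leukocyte list reached 16.7 in untreated replicate 2.

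The stretches upstream of 6 members were read from RefSeq promoter sequences (GRCh38.p14), in which 59 of the 83 members were found, and 31 of the 43 expressed ones. They are shown because the first 3 lie between head-to-head collagen IV genes, whose pairs had unlike levels, and the last 3 belong to members that were higher in both doxorubicin libraries. Only bases outside every annotated exon are printed, and the strand is that of the gene named. Capitals mark a match to any of 5 motifs on either strand. The GC box was searched for with the letters GGGCGG. The box named CCAAT was searched for by that name. TATAAA stood for the TATA box in this search. The AP-1 site was searched for with the letters TGANTCA, and the p53 half-site by its consensus.
COL4A3, chr2:227164454-227164623, plus strand: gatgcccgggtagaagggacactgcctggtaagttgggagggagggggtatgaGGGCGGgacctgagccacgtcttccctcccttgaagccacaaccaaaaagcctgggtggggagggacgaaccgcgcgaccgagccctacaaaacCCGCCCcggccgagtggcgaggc
COL4A2, chr13:110307158-110307257, plus strand: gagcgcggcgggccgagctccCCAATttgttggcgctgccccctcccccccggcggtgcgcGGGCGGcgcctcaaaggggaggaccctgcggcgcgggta
COL4A5, chrX:108439588-108439837, plus strand: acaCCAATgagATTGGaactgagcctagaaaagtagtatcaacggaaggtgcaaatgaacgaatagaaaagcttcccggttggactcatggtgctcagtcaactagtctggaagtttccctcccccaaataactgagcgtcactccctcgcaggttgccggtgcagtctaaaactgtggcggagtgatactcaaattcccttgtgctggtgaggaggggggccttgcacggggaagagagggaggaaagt
COL17A1, chr10:104085881-104086130, minus strand: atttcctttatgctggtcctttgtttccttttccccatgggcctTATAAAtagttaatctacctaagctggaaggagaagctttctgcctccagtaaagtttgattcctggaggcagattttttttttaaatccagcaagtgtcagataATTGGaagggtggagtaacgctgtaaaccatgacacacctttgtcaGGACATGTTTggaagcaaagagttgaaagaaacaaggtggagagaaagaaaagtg
COL6A2, chr21:46097862-46098111, plus strand: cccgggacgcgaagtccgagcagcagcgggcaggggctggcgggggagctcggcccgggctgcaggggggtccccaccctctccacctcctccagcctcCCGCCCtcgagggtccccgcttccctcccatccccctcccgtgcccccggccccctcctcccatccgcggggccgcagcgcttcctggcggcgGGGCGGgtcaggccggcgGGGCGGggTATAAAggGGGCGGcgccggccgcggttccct
ITGA5, chr12:54419267-54419516, minus strand: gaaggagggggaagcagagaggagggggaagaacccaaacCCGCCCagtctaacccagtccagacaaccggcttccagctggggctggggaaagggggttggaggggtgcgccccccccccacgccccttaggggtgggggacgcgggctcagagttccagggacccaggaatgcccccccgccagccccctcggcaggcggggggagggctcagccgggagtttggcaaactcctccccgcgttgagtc
Among the 250 bases before the start, a GC box was present in 22 of the 31 expressed members (71.0%), in 54.2% of all 59 members found and in 42.3% of all 27305 promoters. The median GC content was 70.4% in the expressed members and 58% over all promoters. COL17A1 was the 1 member with a p53 half-site, against 5.53% of all promoters, and AP-1 sites were found in 1 member, against 6.60%. A CCAAT box was found in 6 of the 31 expressed members and in 33.0% of all promoters, and a TATA box in 4 of the 31 and in 11.1%. These matches describe letters only, and a GC box can share bases with a reversed CCAAT box beside it.

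Of the 83 members, 43 were expressed. They were 21 of 44 collagens, 10 of 12 laminins, 8 of 18 integrin alpha chains and 4 of 8 integrin beta chains. A further 15 members reached a CPM of 1 in 1 to 3 libraries, and 25 reached it in none. ITGA4, the alpha chain of a leukocyte integrin, was the 1 member with 0 counts in every library, which allows a CPM of up to 0.109 (3 counts in the shallowest library, counting error only). The summed CPM of all 83 members was 5967 and 4822 without the drug and 7270 and 7021 with it. Both doxorubicin libraries were thus above both untreated libraries. In bulk RNA, fewer cells of a type and less RNA per cell cannot be told apart.

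Levels of different genes were compared per length, as CPM per kilobase of exon. The highest members were integrin chains. ITGA3, which pairs with ITGB1 to bind laminin, ranged from 99.8 to 142 per kilobase over the 4 libraries. ITGA5, the alpha chain of the fibronectin receptor, ranged from 68.6 to 156, and ITGB1, the beta chain shared by many receptors, from 64.4 to 109. These ranges overlapped. ITGB5, a partner of the vitronectin-binding ITGAV, followed at 59.9 to 73.0. COL5A1, which starts and limits the width of collagen fibrils, was the highest collagen at 32.9 to 98.6. The laminin chains LAMC1 (33.4 to 63.2), LAMB3 (41.3 to 59.9), LAMB2 (27.1 to 48.4) and LAMA5 (21.5 to 45.1) came next. COL12A1, which coats fibrils, completed the 10 highest members at 26.4 to 38.8. Within these 10, the range of each member overlapped that of its neighbour in the order. ITGA3 was nevertheless higher in its lowest library than any member from ITGB5 down in its highest, and within each of the 4 libraries ITGA3 was above ITGB1, LAMB3 above LAMB2 and LAMC1 above COL12A1. The order also depended on the length used, since ITGB1 ranged from 139 to 236 per kilobase of its longest transcript and then had the highest mean level of the members. Toward the other end stood COL8A1, a network collagen, at 0.213 to 0.531.

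**Figure D1:**
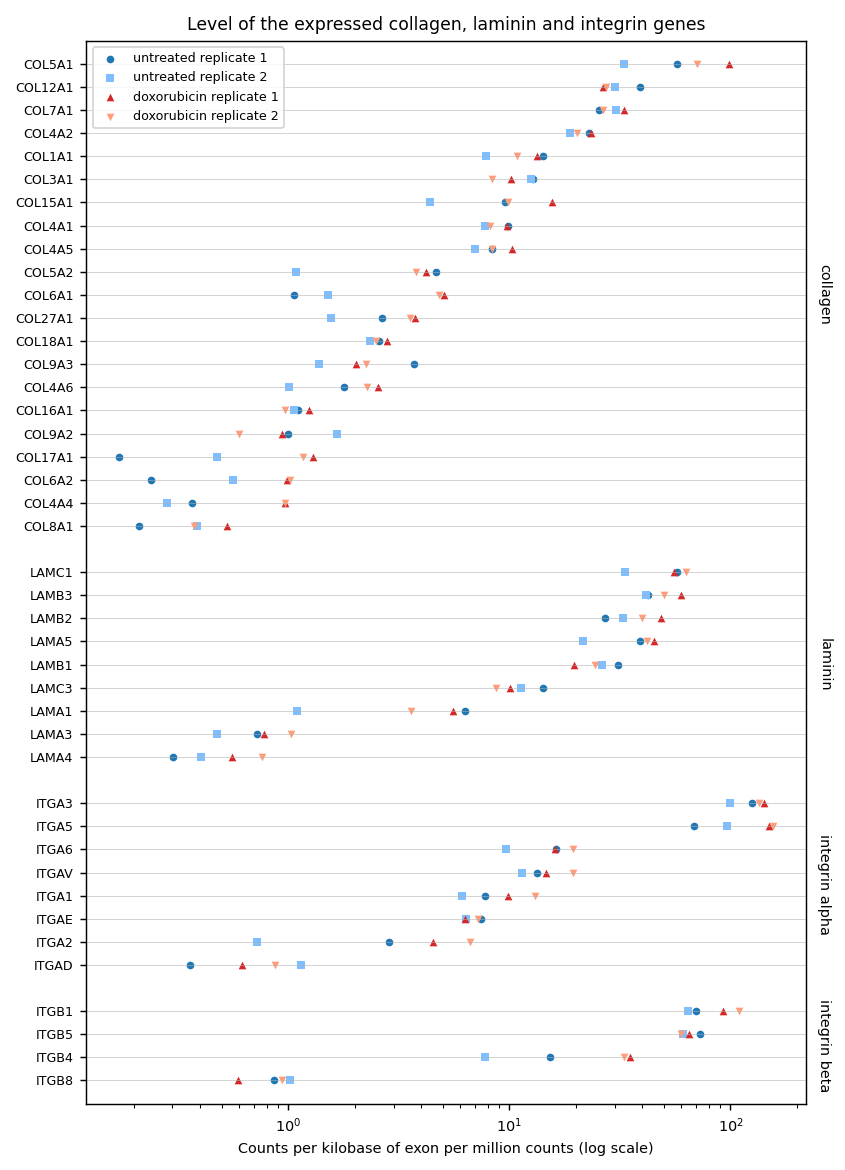
Level of 42 expressed collagen, laminin and integrin genes in each of the 4 libraries, in CPM per kilobase of exon on a log axis, ordered within each family by the mean. Integrin chains reach the highest levels (ITGA5 up to 156), and COL8A1 lies at the low end.

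Chains that assemble into 1 protein did not have equal levels. Collagen I is made from COL1A1 and COL1A2. COL1A1 had a level of 14.3 and 7.85 per kilobase without the drug and 13.4 and 10.9 with it. COL1A2 had 2 counts in each untreated library and 0 in each doxorubicin library. No fold is given for it, since all 4 libraries were under 3 counts. Collagen V showed the same order of chains. COL5A2 had 4.67 and 1.09 per kilobase without the drug and 4.20 and 3.81 with it, below COL5A1 in every library. In the laminin of skin-type basement membranes, whose alpha and beta chains are LAMA3 and LAMB3, LAMB3 was at 41.3 to 59.9 and LAMA3 at 0.479 to 1.03. The other laminin chains at high levels, LAMA5, LAMB1, LAMB2 and LAMC1, which build the laminins most widespread in epithelia, were at or above 19.6 in every library. ITGA6 (9.61 to 19.5) and ITGB4 (7.78 to 35.2), the 2 chains of the hemidesmosome integrin, overlapped.

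**Figure D2:**
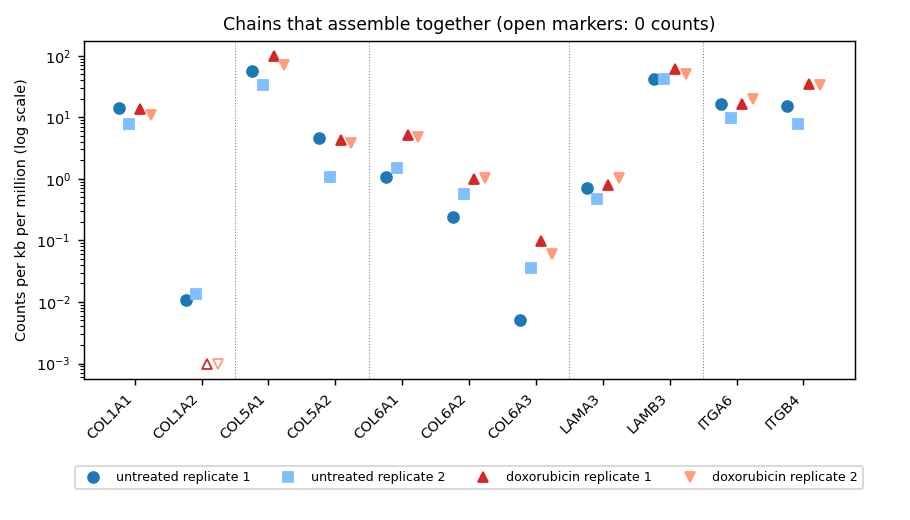
Levels of chains that assemble together, in CPM per kilobase of exon on a log axis, with 1 marker per library. Open markers stand for 0 counts and are drawn at the bottom of the axis. COL1A2 lies far below COL1A1, and LAMA3 far below LAMB3, in all 4 libraries.

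The counts of doxorubicin-treated and untreated cells were compared over all 17479 genes that passed the filter on low counts, with the quasi-likelihood test of edgeR. Of the members, 60 passed the filter and 0 were called at an adjusted p-value under 0.05 (edgeR, Benjamini-Hochberg) with an absolute log2 fold change of 1 or more, where the background over all genes tested was also 0%. The smallest adjusted p-value of a member in this edgeR test was 0.773. Without adjustment, 4 of the 43 expressed members were higher in treated cells at a p-value under 0.05 (background 1.2% of expressed genes) and 0 were lower (background 1.68%). They were COL6A1, COL17A1, COL4A4 and ITGB4. COL4A3, ITGB3 and ITGAX, which were not expressed in all libraries, also had an unadjusted p-value under 0.05, and a gene that is low in untreated cells can pass the filter through the treated libraries alone. DESeq2, the exact test and the likelihood ratio test of edgeR also called 0 members (background 0.509%, 0.217% and 0.366%). The log2 fold change over the 43 expressed members had a median of 0.24 against 0.02 over all expressed genes, and 26 of the 43 were above 0 (background 51.3%).

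In 21 of the 43 expressed members both doxorubicin libraries were above both untreated libraries (background 30.3% of expressed genes), and in 5 both were below (background 12.7%). These counts use CPM scaled by the library totals, a scaling that places the median of all genes tested at 0.17 on the log2 scale in place of 0.01. Untreated replicate 2 was the lowest library for 24 of the 43 expressed members (background 50%) and the highest for 3 (background 33.6%). The median size of the log2 difference between replicates was 0.42 for untreated and 0.26 for treated cells over the expressed members, and 0.74 and 0.21 over all expressed genes. Since the untreated replicates differed this much, values are also given from both fits that leave 1 untreated library out. For some genes they are given from only 1 of these fits. Both fits use the same 2 doxorubicin libraries and take the lone untreated library to vary like them. Without untreated replicate 2, 6 of the 43 expressed members were called as higher (background 2.4%) and 0 as lower (background 0.533%). These 6 were COL6A1, COL6A2, COL17A1, COL4A4, ITGB4 and ITGA5. Over all expressed genes the median log2 fold change was -0.03 without untreated replicate 2 and 0.20 without replicate 1. Over the 43 members it was 0.02 without untreated replicate 2, with 23 above 0. Without untreated replicate 1, 11 were called as higher (background 24.6%) and 1 as lower (background 13.3%), with a median of 0.55.

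**Figure D3:**
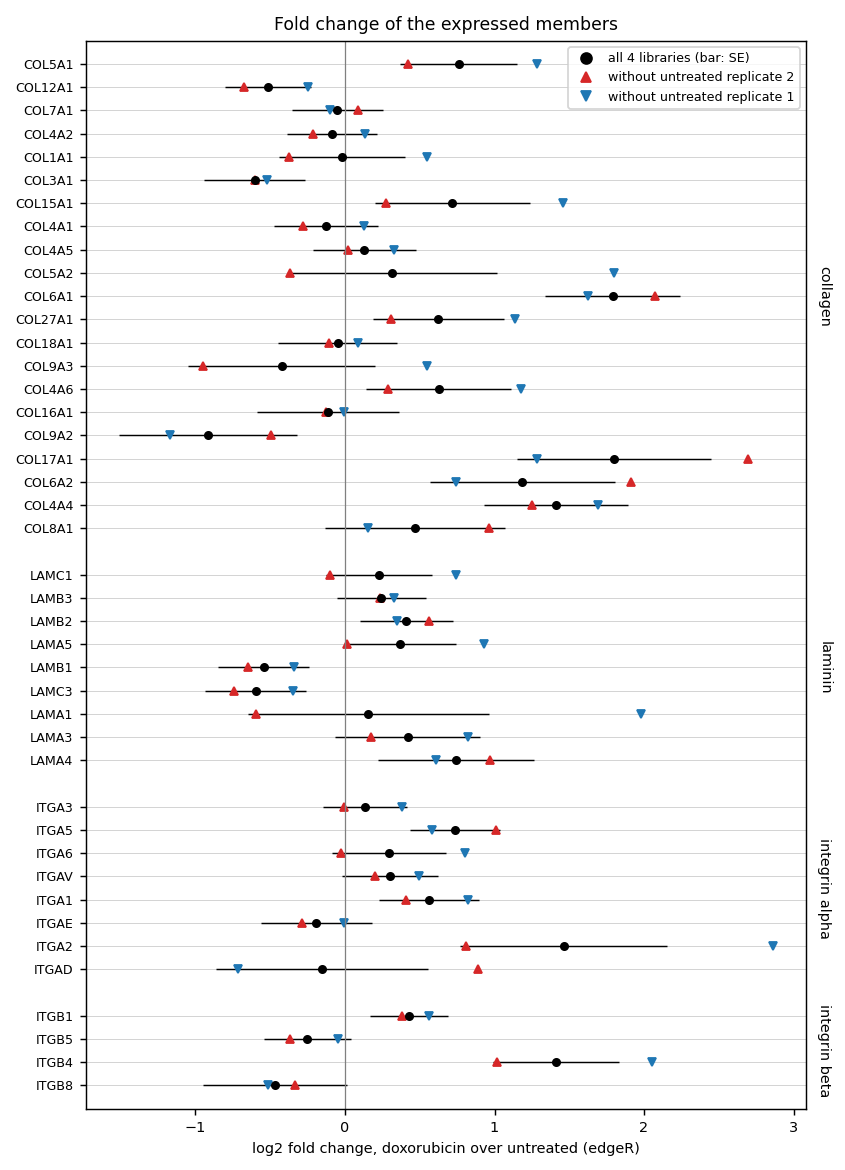
Log2 fold change of doxorubicin over untreated for 42 expressed members, from the edgeR fit to all 4 libraries (black points, bars show the standard error) and from the fits without untreated replicate 2 (red) or 1 (blue). COL6A1, COL17A1, COL4A4 and ITGB4 lie above 1 in all 3 fits.

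Collagen VI forms beaded filaments close to cells, and its main form is made of the chains of COL6A1, COL6A2 and COL6A3. COL6A1 (chromosome 21, 45981770 to 46005050, plus strand) stood at a CPM of 4.47 and 6.37 without the drug and 21.3 and 20.3 with it. The doxorubicin libraries were close to each other and the mean was 3.84-fold that of the untreated libraries. The log2 fold change was 1.79 (standard error, SE, 0.45, unadjusted p = 0.00884, adjusted p = 0.773 by edgeR), with 2.07 without untreated replicate 2 and 1.62 without replicate 1. COL6A2, which begins 93061 bases after the end of COL6A1 on the same strand (chromosome 21, 46098112 to 46132848), had 1.05 and 2.46 without the drug and 4.31 and 4.42 with it. Its log2 fold change was 1.19 (SE 0.62), 1.91 without untreated replicate 2 and 0.74 without replicate 1. COL6A3 lies on chromosome 2 and was below the expression level, with 0.0551, 0.381, 1.05 and 0.653 in the same order of libraries. It was named after its values were seen, and its count of 2 in untreated replicate 1 leaves its fold open to counting error. All 3 chains were higher in both doxorubicin libraries, and per kilobase COL6A1 was above COL6A2 and COL6A2 above COL6A3 in every library.

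**Figure D4:**
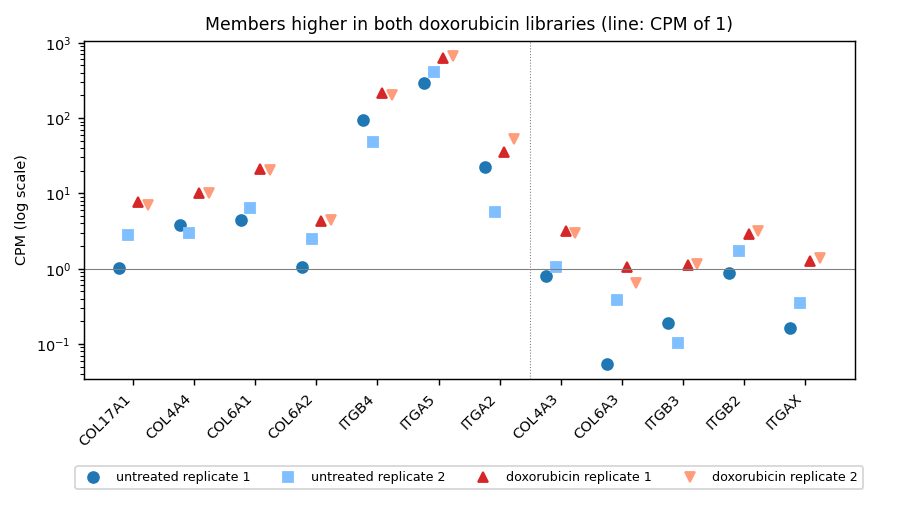
CPM of 12 members on a log axis, with 1 marker per library and a horizontal line at a CPM of 1. The 7 members left of the dotted line were expressed, the 5 on the right were not. In each of them both doxorubicin libraries lie above both untreated libraries.

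COL17A1 and ITGB4 belong to the hemidesmosome, the plaque that anchors keratin filaments of epithelial cells to that laminin. COL17A1 (chromosome 10, 104031286 to 104085880, minus strand), a collagen that spans the membrane, stood at a CPM of 1.02 and 2.84 without the drug and 7.69 and 6.96 with it. The log2 fold change was 1.80 (SE 0.65, unadjusted p = 0.0349 by edgeR), 2.70 without untreated replicate 2 and 1.29 without replicate 1. ITGB4 (chromosome 17, 75721328 to 75757818, plus strand), the beta chain of the laminin-binding integrin of the plaque, had 94.4 and 48.1 without the drug and 218 and 205 with it. Its log2 fold change was 1.41 (SE 0.42, unadjusted p = 0.0171 by edgeR), 1.02 without untreated replicate 2 and 2.05 without replicate 1. The differences of ITGA6, LAMB3 and LAMA3 were smaller than their SE. ITGA6, the partner of ITGB4, had 97.8 and 57.6 without the drug and 96.7 and 117 with it, so the groups overlapped. Its log2 fold change of 0.30 (SE 0.38) was -0.02 without untreated replicate 2 and 0.80 without replicate 1. LAMB3 had 188 and 184 against 266 and 223, with a log2 fold change of 0.24 (SE 0.30). LAMA3 had 7.83 and 5.19 against 8.48 and 11.1, at 0.42 (SE 0.48). Scaled by library totals, LAMB3 and LAMA3 were each higher in both doxorubicin libraries, as were 30.3% of expressed genes. The difference between ITGB4 and ITGA6 was not tested. By CPM scaled by library totals, the other genes of the plaque, PLEC, DST and CD151, were 3 of 3 higher in both doxorubicin libraries (background 30.3% of expressed genes). Of these 3, 0 were called, and CD151 had a log2 fold change of 0.06 (SE 0.29). The log2 fold change of PLEC was 0.15 without untreated replicate 2 and 1.86 without replicate 1. That of DST was 0.41 without untreated replicate 2 and 2.80 without replicate 1. PLEC, which links the plaque to keratin, had 1761 and 561 against 2203 and 2132.

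Collagen IV, the network collagen of basement membranes, has 6 chains whose genes lie in head-to-head pairs. The RefSeq starts were 127 bases apart for COL4A1 and COL4A2, 419 for COL4A4 and COL4A3, and 380 for COL4A6 and COL4A5, and the sequences printed above come from these gaps. The first pair makes the common form of collagen IV. COL4A1 stood at a CPM of 73.4 and 57.7 without the drug and 72.8 and 60.7 with it, and COL4A2 had 296 and 244 against 303 and 262. Both overlapped between groups, with log2 fold changes of -0.13 (SE 0.35) and -0.09 (SE 0.30), which turn to 0.02 and 0.07 when libraries are scaled by their totals alone, to 0.13 for both genes without untreated replicate 1, and to 0.075 and 0.094 without doxorubicin replicate 2. The annotated transcripts of these 2 genes overlap at their starts, and the strand setting of the counting is not given in the sources used here. The second pair is known for the basement membrane of the kidney filter. COL4A4 (chromosome 2, 227002714 to 227164453, minus strand) had 3.83 and 2.94 without the drug and 10.05 and 10.12 with it. Its log2 fold change was 1.41 (SE 0.48, unadjusted p = 0.0290 by edgeR), 1.25 without untreated replicate 2 and 1.69 without replicate 1. COL4A3 (227164624 to 227314792, plus strand), just under the expression level in 1 library and named after its values were seen, had 0.80 and 1.04 against 3.15 and 3.01. Its log2 fold change was 1.60 (SE 0.56), 1.80 without untreated replicate 2 and 1.48 without replicate 1. Both genes of the second pair were therefore higher in both doxorubicin libraries. In the third pair COL4A5 had 65.2 and 55.0 against 80.8 and 65.2, and COL4A6 had 12.3 and 6.93 against 17.6 and 15.6, with log2 fold changes of 0.13 and 0.63. By CPM scaled by library totals, both genes of the third pair were also higher in both doxorubicin libraries. For COL4A5 the margin was 65.20 against 65.25. These values leave out the TMM factors of the test, 0.944 for untreated replicate 1 and 1.089 for doxorubicin replicate 2. Without doxorubicin replicate 1 the log2 fold change of COL4A5 was -0.05.

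**Figure D5:**
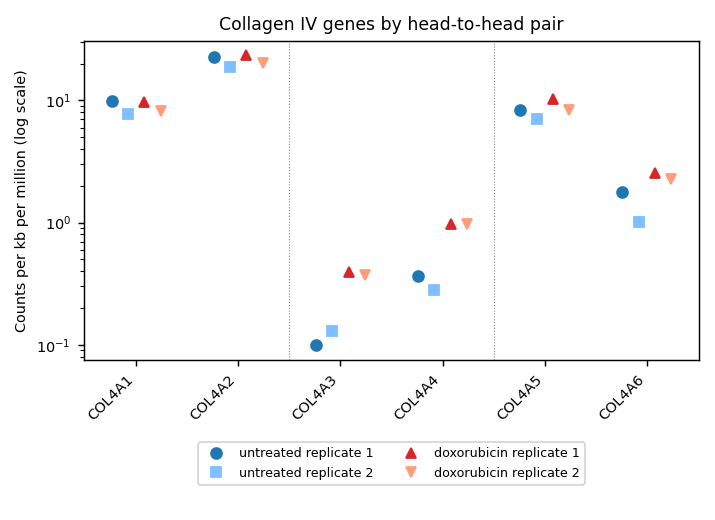
Levels of the 6 collagen IV genes by head-to-head pair, in CPM per kilobase of exon on a log axis, with 1 marker per library. The groups overlap for COL4A1 and COL4A2, and both doxorubicin libraries lie above both untreated libraries for the other 4 genes, narrowly for COL4A5. COL4A3 and COL4A4 have the lowest levels.

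Of the 5 expressed fibrillar collagens, which form the cable-like fibrils of connective tissue, 3 had a log2 fold change above 0 and 2 below, against 4 above 0 with library totals alone and 2 without untreated replicate 2. COL5A1 (chromosome 9, 134641803 to 134844843) stood at a CPM of 486 and 280 without the drug and 839 and 600 with it. The log2 fold change was 0.76 (SE 0.39), 0.42 without untreated replicate 2 and 1.28 without replicate 1. COL3A1 had 70.0 and 69.1 against 55.8 and 46.0, at -0.60 (SE 0.34), and was 1 of the 5 members with both doxorubicin libraries below both untreated ones. The other 4 were COL12A1, COL9A2, LAMB1 and LAMC3. COL1A1 overlapped between groups. COL5A2 was low in untreated replicate 2 alone, with 32.5 and 7.55 against 29.2 and 26.4, so its log2 fold change was -0.37 without that library and 1.80 without replicate 1. All 4 expressed fibril-associated collagens, which decorate fibrils, had a log2 fold change below 0, from -0.92 (COL9A2) to -0.11 (COL16A1), and 0 of the 4 had an unadjusted p-value under 0.05. With library totals alone, and likewise without untreated replicate 1, 1 of the 4 was above 0. COL12A1 (chromosome 6, 75084326 to 75206267) had 470 and 365 against 320 and 331.7, at -0.51 (SE 0.29), -0.67 without untreated replicate 2 and -0.25 without replicate 1. COL7A1, which makes the anchoring fibrils under skin-type epithelium, had 237 and 282 against 309 and 248 and overlapped between groups. Among the collagens that release endothelium-acting fragments, COL15A1 had 51.8 and 23.8 against 84.5 and 53.4, and COL18A1 had 17.4 and 15.9 against 18.9 and 17.0.

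The 4 expressed laminin alpha chains, which carry the part that cells bind, had log2 fold changes from 0.16 (LAMA1) to 0.74 (LAMA4). Without untreated replicate 2, 3 of the 4 were above 0, and without replicate 1 all 4 were. None of the 10 expressed laminins had an unadjusted p-value under 0.05 by edgeR. LAMA4 stood at a CPM of 2.48 and 3.32 without the drug and 4.58 and 6.27 with it, without overlap. LAMA5 had 445 and 246 against 516 and 477, at 0.37 (SE 0.37) and 0.01 without untreated replicate 2. LAMA1 showed how far 1 library could carry a value. It had 60.8 and 10.6 without the drug against 53.6 and 34.8 with it, and its log2 fold change was -0.60 without untreated replicate 2 and 1.98 without replicate 1. Among the beta chains LAMB2 had 156 and 188 against 279 and 229, at 0.41 (SE 0.31). LAMB1 had 199 and 169 against 126 and 157, at -0.54 (SE 0.30). The 2 chains thus lay on opposite sides of 0, a difference that was not tested. Of the gamma chains, LAMC1 had 454 and 265 against 438 and 501 and overlapped between groups, with 0.23 (SE 0.35) and -0.10 without untreated replicate 2. LAMC3 had 106 and 84.4 against 75.3 and 64.8, at -0.60 (SE 0.34).

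Among the integrins, ITGA5 (chromosome 12, 54395261 to 54419266, minus strand) stood at a CPM of 292 and 410 without the drug and 637 and 665 with it. The log2 fold change was 0.73 (SE 0.30, unadjusted p = 0.0528 by edgeR). It was 1.01 without untreated replicate 2, which passed the thresholds of that fit, and 0.58 without replicate 1. Its ligand FN1, the fibronectin gene, had 6.34 and 6.75 against 34.9 and 28.8, at 2.13 (SE 0.42). ITGB1, the only beta chain that ITGA5 pairs with, had 726 and 668 against 963 and 1135, at 0.43 (SE 0.26). ITGAV, which with several beta chains binds vitronectin and activates TGF-beta, had 97.0 and 82.6 against 106 and 141, at 0.30 (SE 0.32). ITGA3 had 614 and 488 against 694 and 656, at 0.14 (SE 0.28), -0.01 without untreated replicate 2 and 0.38 without replicate 1. ITGA1 and ITGA2, neighbours on chromosome 5, are the alpha chains of collagen receptors. ITGA1 had 83.6 and 65.6 against 106 and 141. ITGA2 had 22.5 and 5.64 against 35.4 and 52.3, at 1.46 (SE 0.69), and the low value of untreated replicate 2 put it between 0.81 without that library and 2.87 without replicate 1. ITGB5 had 324 and 270 against 290 and 266 and overlapped between groups, and ITGB8 likewise.

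Of the 40 members that were not expressed, 17 passed the filter on low counts, and 7 of these 17 were higher in both doxorubicin libraries (background 30.3% of genes tested). A gene can pass this filter through 1 group alone. ITGB3, the beta chain of the platelet and vitronectin receptors, stood at a CPM of 0.193 and 0.104 without the drug and 1.14 and 1.16 with it (7 and 3 counts against 39 and 32), with an unadjusted p of 0.00723 by edgeR. ITGAX, the alpha chain of a receptor known from dendritic cells, had 0.165 and 0.346 against 1.28 and 1.38. ITGB2, the beta chain of the leukocyte integrins, had 0.882 and 1.73 against 2.91 and 3.12, at 1.07 (SE 0.59). These 3 genes were named after their values were seen. Without untreated replicate 2, 12 members were called as higher (background 3.88% of genes tested) and 0 as lower (background 0.556%), the 6 expressed ones named above and COL4A3, COL6A3, ITGA7, ITGAX, ITGB2 and ITGB3. ITGA7, a laminin-binding chain of muscle, was highest in the library left out there, with 0.827 and 7.13 against 2.97 and 3.01. ITGAX, ITGB2 and ITGB3 are leukocyte or platelet genes by background, while PTPRC, which defines leukocytes, stood at a CPM of at most 0.416, found in untreated replicate 2, and 0 to 0.0827 in the other libraries. Another 5 members reached a CPM of 1 only in untreated replicate 2. They included COL2A1, the cartilage collagen (0.0827 and 2.53 against 0.117 and 0.145), and ITGAM (0.0551 and 2.56 against 0.146 and 0.399). CD14, a monocyte gene, was also highest in that library, at 16.7 against 0.816 to 1.13 in the others. Its part in these values was not tested.

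The summed level of fibroblast markers was also higher in both doxorubicin libraries. Of a list of 7 such genes, 4 were at a CPM of 1 in all libraries. The summed CPM of the list, scaled by library totals, was 827 and 774 without the drug and 1166 and 1014 with it. Most of it came from VIM, whose log2 fold change in the edgeR fit was 0.18 (SE 0.28). LUM, a proteoglycan of collagen fibrils, had 65.4 and 49.3 against 135 and 163, and DCN, another, had 0.469 and 0.623 against 7.69 and 6.85. FAP, a protease of activated fibroblasts, had 3.17 and 2.22 against 6.64 and 6.93. Other genes of the list were not higher, with PDGFRB at 5.27 and 3.71 against 5.16 and 4.32 (log2 fold change -0.08) and THY1 at 0.579 and 0.416 against 0.437 and 0.326 (-0.53). PDGFRA, which marks fibroblasts, was at 0 in 3 libraries and at 0.104 in untreated replicate 2. The keratins KRT8 and KRT18 of simple epithelia stood at 4105 and 3968 and at 1793 and 783 in untreated cells, and at 2440 and 2088 and at 1086 and 937 in treated ones. Of a list of 8 genes of squamous or basal epithelium, 4 were expressed, KRT17 above all, while KRT5 and TP63 had a CPM of at most 0.381. Whether these markers have a part in the values of the collagens was not tested.

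The other genes of matrix assembly, adhesion and turnover were taken from lists, of which 64 genes passed the filter. Of these, 0 were called as higher or lower by the quasi-likelihood test of edgeR (background 0%), and 6 were higher (background 2.66%) and 0 lower (background 1.73%) at an unadjusted p-value under 0.05. Of the 49 that were expressed, 20 were higher and 5 lower in both doxorubicin libraries (background 30.3% and 12.7%). Without untreated replicate 2, 4 of the 49 were called as higher (background 2.4%), and without replicate 1, 16 were called as higher and 3 as lower (background 24.6% and 13.3%). Among enzymes that process collagen, LOX, which cross-links collagen and elastin, stood at a CPM of 36.3 and 37.0 without the drug and 152 and 146 with it. Its log2 fold change was 1.87 (SE 0.32), 1.89 without untreated replicate 2 and 1.93 without replicate 1. P4HA2, a prolyl hydroxylase of collagen chains, had 59.6 and 45.5 against 122 and 108, at 0.97 (SE 0.34). SERPINH1, the collagen chaperone, had 250.4 and 486 against 296 and 221, with the highest value in untreated replicate 2. Of the 13 expressed genes of integrin adaptors and signalling, 0 had an unadjusted p-value under 0.05 by edgeR, 8 were above 0 and the median was 0.24. Without untreated replicate 2, 1 of the 13 was above 0 and their median was -0.29. Without replicate 1, 9 of the 13 were above 0 and their median was 0.96. THBS1 and CCN2, matrix proteins that bind integrins, were high in untreated replicate 2 alone, with 300 and 156 against 42.1 to 45.6 and 13.4 to 15.7 in the other libraries.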

How the data were processed

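Poly(A) RNA of cells labelled HepG2 was sequenced in 2 untreated and 2 doxorubicin libraries. The authors deposited raw read counts per gene, without normalization. Their methods name FastQC, Cutadapt, HISAT2 and HTSeq, and the processing notes name hg38, while the header names the basic set of GENCODE release 31. Tool versions and the strand setting are not given in the sources used here, so reads of an antisense gene cannot be told apart.

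The counts were tested with the quasi-likelihood test of edgeR 4.0.16 (TMM factors, filterByExpr) under R 4.3.3 with Benjamini-Hochberg adjustment over all genes. A gene was called at an adjusted p-value under 0.05 with an absolute log2 fold change of 1 or more. The SE of a log2 fold change was derived from the test, as its absolute size divided by the square root of the F statistic. CPM was the count divided by the library total. Levels per length used the union of basic exons of GENCODE release 44. With 2 libraries per group, the p-values set the group difference against the spread between these libraries. That spread was estimated with information shared over all genes tested, so it is not a gene's own spread alone. Alternatives were other tests (DESeq2 1.42.0, exact, likelihood ratio), factors, filters, a replicate block and leaving out each library. The deviations of same-numbered libraries from the group means correlated at 0.0219.

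The members and all lists were chosen with earlier results of these data known. Named in full by rule were expressed members with an absolute log2 fold change of 1 or more or an unadjusted p-value under 0.05, the chains LAMA3, LAMB3, COL17A1, ITGA6 and ITGB4, COL4A1, COL4A2, ITGB1, ITGAV and the 3 highest members per length of each family, together 22 genes. Another 5 were named after their values were seen. Some genes are not reported here. Promoters came from RefSeq (GRCh38.p14).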

Additional observations from a re-analysis of the deposited data

How the results depend on the processing

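The depth of 27572740 to 36272180 counts limits members with a few counts, and the spread between replicates (biological coefficient of variation 0.486) limits all others. The number of genes called was 0 by the quasi-likelihood test of edgeR, 38 by the exact test, 64 by the likelihood ratio test, 89 by DESeq2 and 690 at an unadjusted p-value under 0.05, and leaving out 1 library moved it between 0 and 8697, the highest without untreated replicate 1 and 815 without untreated replicate 2. The number of members called was 0 by the quasi-likelihood, exact and likelihood ratio tests of edgeR and by DESeq2, each on all 4 libraries. It was not 0 in the fits that leave out 1 untreated library, as given above. At an unadjusted p-value under 0.05 by edgeR, 7 of the 60 members tested were called, beside the 690 of 17479 genes. These 7 include COL4A3, ITGB3 and ITGAX, which were not expressed in all libraries. A gene that is low in untreated cells can pass the filter through the treated libraries alone, so the 2 shares are not compared further. With the replicate number as a block, 20 genes and 0 members were called. The deviations of same-numbered libraries had a correlation of 0.0219. Untreated replicate 2, which stood apart, enters these deviations, so this value cannot decide whether same-numbered libraries belong together. The cause of these moves was not tested.

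The median log2 fold change of the expressed members stayed above 0, from 0.02 to 0.55 under all alternatives, and 23 to 33 of the 43 were above 0. The median over all expressed genes moved as well, to -0.03 without untreated replicate 2 and 0.20 without replicate 1. Scaling by library size alone gave 33, beside 7577 of the 12384 expressed genes, and moved the median of all genes to 0.17. The sign turned for 7 of the 43 with library size alone, for 3 with no filter, for 2 with the block, and for 3 to 7 with 1 library left out, among them LAMA1, COL5A2 and ITGAD without untreated replicate 2. Of the genes named in full, with library size alone COL4A1 had 0.024, COL4A2 0.065 and COL7A1 0.10, and with no filter COL7A1 had 0.022. With 1 library left out, COL4A1 ranged from -0.28 to 0.13, COL4A2 from -0.21 to 0.13, COL7A1 from -0.22 to 0.19, ITGA3 from -0.0094 to 0.38, ITGA6 from -0.024 to 0.80 and LAMC1 from -0.10 to 0.74. For the length, 9 of the 10 highest members stayed among the 10 with the longest transcript, and 9 with all annotated transcripts, an alternative chosen after seeing the data, as were the use of the basic exons for the length and the earlier form of the edgeR fit.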
